A study of Mus musculus with 6 samples.

Results

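Erythroid and haemoglobin genes are the transcripts of red blood cells and of the precursors that make them. The set described here was chosen by name: the adult globin genes Hba-a1, Hba-a2, Hbb-bs and Hbb-bt, and Alas2, Slc4a1, Ahsp, Epb42 and Klf1. Of these 9 names, 8 had a row among the 31319 genes with counts, and 7 passed the filter on low counts. Ahsp was not analysed here, and Epb42 was too low to test. The libraries were made from polyadenylated RNA of the main olfactory epithelium, the lining of the nasal cavity that carries the odour-sensing neurons, from male C57BL/6 mice aged 5 months. In the KD group (3 libraries) miR-200b and miR-200a, microRNAs from neighbouring loci, were the targets of a knockdown, and the other group is labelled NC and called control in the column headers (3 libraries). How the knockdown was made, in which cells, and what the NC mice carried or received are points that the sources used here do not give. Values of a group are given in the order of its library numbers, 1 to 3. Whether each library was 1 mouse is not stated, so p-values measure the spread between libraries, which may be technical.

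Haemoglobin is a tetramer of alpha and beta globin chains, each holding a haem group that binds oxygen. Developing red cells make the globins in very large amounts, build haem through an enzyme chain that Alas2 opens, and insert band 3 (Slc4a1) with protein 4.2 (Epb42) into a spectrin-bound membrane, while the factor Klf1 drives many of these genes. Mammalian red cells lose their nucleus in the marrow, and the youngest of those in blood, reticulocytes, still carry globin mRNA. The olfactory epithelium lies over a lamina propria rich in vessels, so a dissected piece of tissue can hold blood as well as epithelium.

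Total counts per library ran from 15704791 to 17618540. At the targeted loci each KD library had fewer counts than each NC library: Mir200a had 54, 3 and 52 in the KD group where the NC group had 200, 87 and 84, and Mir200b had 10, 0 and 28 where NC had 76, 54 and 47. Such counts do not measure the mature microRNAs. KD-2 stood apart from the other libraries. Omp, the marker protein of mature olfactory neurons, had 149 counts there, while the other KD libraries had 24302 and 33430 and the NC libraries 61926 to 69388.

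The coding sequences carry the first limit on reading these genes singly. The alpha pair, Hba-a1 and Hba-a2, has 429 coding bases per gene and differs at 1 of them (99.77% identity), written C381T with positions counted from 1 at the A of the start codon. The beta pair, Hbb-bs and Hbb-bt, has 444 coding bases and likewise differs at 1, C417T (99.77% identity). Each difference is the last base of a codon, codon 127 in the alpha pair and codon 139 in the beta pair. Neither changes the amino acid, so the genes of a pair encode the same chain. Below, coding bases 351 to 410 of the alpha pair and 385 to 444 of the beta pair are shown 5′ to 3′ from the GENCODE transcripts of GRCm38, with the differing base in capitals.
Hba-a1: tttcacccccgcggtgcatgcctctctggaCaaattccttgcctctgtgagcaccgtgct
Hba-a2: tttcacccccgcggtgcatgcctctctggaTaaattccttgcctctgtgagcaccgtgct
Hbb-bs: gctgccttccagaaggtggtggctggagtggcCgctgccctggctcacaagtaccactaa
Hbb-bt: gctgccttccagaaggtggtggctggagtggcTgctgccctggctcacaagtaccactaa

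Of all 150-base stretches of the annotated transcripts, the read length of this series, 48.4% of those of Hba-a1 also occurred in Hba-a2 and 65.7% of those of Hba-a2 in Hba-a1. For the beta pair the shares were 58.7% of Hbb-bs and 50.7% of Hbb-bt. How the authors' counting treated reads that match both copies is a point the sources used here do not give. The counts of single globin genes are therefore uncertain within a pair, and the sum over the 4 genes, called haemoglobin counts from here on, is better defined.

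The 120 bases before the RefSeq start sites (RefSeq table of build GRCm38.p6) were listed for 7 of the 9 names. They are shown for 4 of these because the control regions of red-cell genes are known for a few short motifs. Capitals mark matches, on either strand, to GATAA (the core that GATA factors bind), CACCC (bound by the Klf family), CCAAT and TATAA. Stretches that GENCODE places in an untranslated region were cut to at most 30 bases, so the Alas2 stretch ends 12 bases and the Klf1 stretch 24 bases before the start. The positions are chr11:32296372-32296491 (forward strand) for Hba-a2, chr7:103827929-103828041 (reverse strand) for Hbb-bs, chrX:150547297-150547404 (forward strand) for Alas2 and chr8:84901862-84901957 (forward strand) for Klf1.
Hba-a2: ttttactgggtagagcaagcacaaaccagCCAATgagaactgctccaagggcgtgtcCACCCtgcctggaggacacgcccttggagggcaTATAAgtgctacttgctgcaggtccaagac
Hbb-bs: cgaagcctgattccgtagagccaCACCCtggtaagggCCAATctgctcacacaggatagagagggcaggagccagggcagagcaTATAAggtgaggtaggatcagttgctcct
Alas2: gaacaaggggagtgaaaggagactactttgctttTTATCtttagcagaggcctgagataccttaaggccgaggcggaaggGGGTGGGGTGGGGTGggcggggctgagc
Klf1: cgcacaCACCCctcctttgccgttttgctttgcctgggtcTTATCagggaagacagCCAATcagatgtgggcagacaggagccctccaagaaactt

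All 4 globin windows held CACCC together with the motifs CCAAT and also TATAA, the last of them beginning 30, 27, 29 and 28 bases before the start in Hba-a2, Hba-a1, Hbb-bs and Hbb-bt. Over 117 bases the Hba-a1 window was the Hba-a2 window shifted by 3. Among 32851 RefSeq windows of the same length, 0.688% held all 3. Singly, CACCC was in 31.7% of the windows, CCAAT in 21.3% and TATAA in 11.8%. The Alas2 window held GATAA once and CACCC 3 times, both on the opposite strand, and the Klf1 window held 1 match to each motif other than TATAA. Of all windows, 10.5% held GATAA. The Epb42 window held none of the 4 motifs. A match is a description of the letters in the window and was not tied to any value measured here.

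The erythroid genes varied widely from library to library within each group, and for most of them the same libraries were high. Haemoglobin counts were 8757, 22829 and 1280 in KD, while NC had 1128, 2001 and 15025. In percent of all counts these were 0.0498, 0.145 and 0.00739 in KD and 0.00698, 0.0114 and 0.0882 in NC. The 95% exact intervals of these shares cover counting error only. They take each count as an independent draw, but the reads carry no molecular identifiers, so all such intervals here may be too narrow. In KD they were 0.0488 to 0.0509, 0.143 to 0.147 and 0.00699 to 0.00781. In NC they were 0.00658 to 0.0074, 0.0109 to 0.0119 and 0.0868 to 0.0896. KD-2, NC-3 and KD-1 were high, the other 3 libraries were low, and each group held libraries of both kinds. Per 1000000 counts with TMM scaling (CPM, the unit of all levels below unless counts are named), haemoglobin stood at 511, 1746 and 70.4 in KD and 69.4, 102 and 841 in NC, a 25.2-fold span. The mean log2 sum was 8.63 ± 2.34 in KD libraries, 7.50 ± 1.94 in NC libraries (SD, n = 3 each). The difference of 1.13 had p = 0.6 in a two-sided exact permutation test, for which 3 libraries against 3 cannot go below 0.1. Leaving out 1 library moved the difference between 0.07 (without KD-2) and 2.38 (without KD-3), and it was 0.44 without NC-1, 0.72 without NC-2 and 2.24 without NC-3. In bulk tissue, fewer red cells and less mRNA per red cell cannot be told apart.

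**Figure D1:**
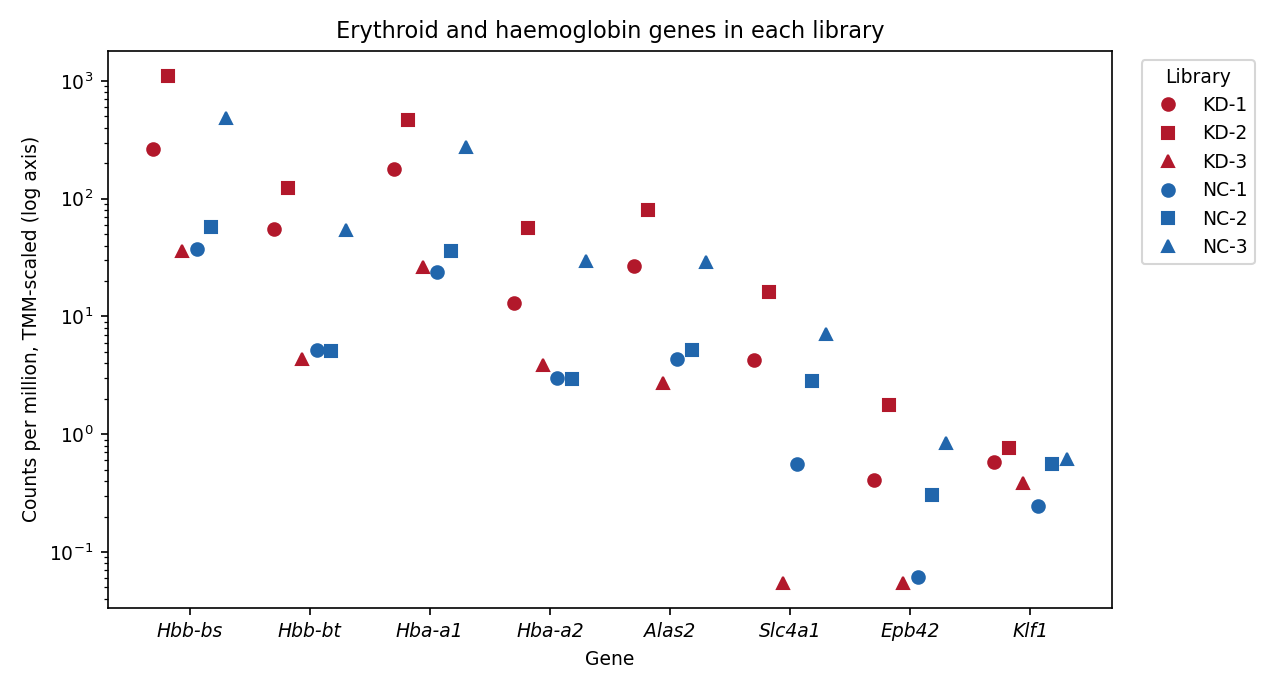
Level of each of the 8 genes in each library, as TMM-scaled CPM on a log axis. KD and NC libraries have separate colours (n = 3 each). For all 8 genes the KD and NC points overlap, KD-2 is the highest point and NC-3 is the highest NC point; Klf1 spans 3.11-fold and the others at least 19.2-fold.

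The 2 beta globin genes sit next to each other on chromosome 7 of GRCm38, both on the reverse strand. Hbb-bs (ENSMUSG00000052305, chr7:103826534-103828096) encodes an adult beta chain and was the most abundant of the set per length, with a median of 209 CPM per kb of exon over the 6 libraries. Counts in KD were 4518, 14382 and 651 and in NC 607, 1132 and 8661. KD-2 was the highest and KD-3 the lowest in CPM, so the KD group alone covered the full 30.7-fold span and enclosed the NC group. Mean levels were 467 ± 561 CPM in KD libraries, 193 ± 253 in NC libraries (SD, n = 3 each). The log2 fold change was 1.27 (SE 1.40), with an adjusted p of 0.58 in the quasi-likelihood test of edgeR, adjusted after Benjamini and Hochberg over all 18444 tested genes.

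Hbb-bt (ENSMUSG00000073940, chr7:103812524-103813996) is the other adult beta globin gene and encodes the same chain. There were 948, 1619 and 79 counts in the KD libraries, 84, 100 and 970 in NC. The order was close to that of Hbb-bs, except that KD-1 and NC-3 were nearly level at 55.3 and 54.3 CPM. Group means were 61.2 ± 60.0 CPM in KD libraries, 21.5 ± 28.4 in NC libraries (SD, n = 3 each). The span was 28.5-fold, and the log2 fold change of 1.50 (SE 1.35) had adjusted p = 0.51 in edgeR.

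The 2 adult alpha globin genes lie on the forward strand of chromosome 11. Hba-a1 (ENSMUSG00000069919, chr11:32283511-32284465) had 3068, 6084 and 480 counts for the KD libraries and 388, 711 and 4867 for NC. As for Hbb-bs, KD-2 was the highest library and NC-3 the second, and KD-3 lay between NC-1 and NC-2. Its levels averaged 224 ± 223 CPM in KD libraries, 111 ± 140 in NC libraries (SD, n = 3 each), at a fitted log2 fold change of 1.01 (SE 1.25) and adjusted p = 0.62 in edgeR.

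Hba-a2 (ENSMUSG00000069917, chr11:32296489-32297298), the second alpha copy, had 223, 744 and 70 counts for the KD libraries and 49, 58 and 527 for NC. The KD and NC values overlapped, with KD-2 highest at 56.9 CPM and NC-2 lowest at 2.96. Levels averaged 24.6 ± 28.4 CPM in KD libraries, 11.8 ± 15.3 in NC libraries (SD, n = 3 each), and the log2 fold change was 1.05 (SE 1.26) with adjusted p = 0.61 in edgeR. The spans of the alpha genes, 19.5-fold for Hba-a1 and 19.2-fold for Hba-a2, were smaller than those of the beta genes.

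Alas2 (ENSMUSG00000025270, chrX:150547375-150570638) encodes the red-cell form of 5-aminolevulinate synthase, the first and rate-limiting enzyme of haem synthesis. The KD libraries held 460, 1053 and 49 counts, the NC libraries 71, 102 and 518. The high and low libraries were those of the globins, over a 29.9-fold span. Levels averaged 36.7 ± 39.9 CPM in KD libraries, 12.9 ± 14.0 in NC libraries (SD, n = 3 each). The log2 fold change was 1.51 (SE 1.24) with adjusted p = 0.47 in edgeR, the smallest of the set. The gene overlaps Apex2 on the opposite strand, and the strand setting of the counting is not given, so reads in the shared stretch cannot be told apart. Apex2 itself had 107 to 182 counts, with its lowest count in KD-2, where Alas2 was highest.

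Slc4a1 (ENSMUSG00000006574, chr11:102348824-102366203) encodes band 3, the chloride and bicarbonate exchanger that also anchors the red-cell skeleton. There were 73, 211 and 1 counts in the KD libraries, 9, 56 and 128 in NC. The single count in KD-3 made its span, 293-fold, the widest of the set. Levels averaged 6.82 ± 8.34 CPM in KD libraries, 3.52 ± 3.36 in NC libraries (SD, n = 3 each), and the log2 fold change of 0.94 (SE 1.49) had adjusted p = 0.71 in edgeR.

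Epb42 (ENSMUSG00000023216, chr2:121017891-121037072) encodes protein 4.2, which ties band 3 to the skeleton. Counts in KD were 7, 23 and 1 and in NC 1, 6 and 15. KD-2 and NC-3 again held the most, but the gene did not pass the filter on low counts and has no test. Levels averaged 0.741 ± 0.90 CPM in KD libraries, 0.402 ± 0.398 in NC libraries (SD, n = 3 each).

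Klf1 (ENSMUSG00000054191, chr8:84901928-84905291), the zinc-finger factor that binds CACCC motifs of globin promoters, varied least. The KD libraries held 10, 10 and 7 counts, the NC libraries 4, 11 and 11. The span was 3.11-fold, and NC-2, low for every globin, matched NC-3 in counts. Levels averaged 0.578 ± 0.190 CPM in KD libraries, 0.474 ± 0.199 in NC libraries (SD, n = 3 each), at a fitted log2 fold change of 0.25 (SE 0.502) and adjusted p = 0.76 in edgeR. With 4 to 11 counts per library its precision was low.

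Per kb of exon, the median order over the 6 libraries was Hbb-bs at 209 CPM per kb, Hba-a1 at 132, Hbb-bt at 42.3, Hba-a2 at 12.6, Alas2 at 6.66, Slc4a1 at 0.727, Klf1 at 0.374 and Epb42 at 0.0659. The first 5 kept this order in each of the 6 libraries. Slc4a1 lay above Klf1 in 4 libraries and below it in KD-3 and NC-1, at 0.0113 and 0.113 CPM per kb against 0.252 and 0.161, so these neighbours do not differ beyond their spread. The split within the globin pairs is subject to the shared reads described above.

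None of the 7 tested members was called. At adjusted p under 0.05, edgeR called 0 of the 18444 tested genes, 0% of them higher and 0% lower. At an unadjusted p under 0.05, 0 of 7 members stood against 17.9% of all genes (8.7% higher and 9.25% lower in KD). DESeq2 called 0 members against 1.89% of its 18390 genes (0.821% higher, 1.07% lower), and limma-voom called 0 members and 0% of genes. The KD and NC libraries overlapped for all 8 members with a row, whereas 33.9% of tested genes did not overlap, 15.3% with KD higher and 18.6% with KD lower. All 7 fitted log2 fold changes were above 0, with a median of 1.05, where the median of all tested genes was 0.01. For 6 of the 7 (Klf1 excepted) the highest library was at least 10 times the lowest, a span reached by 15.9% of tested genes. In the authors' deposited table the log2 fold changes ran from 0.235 for Klf1 to 1.48 for Alas2 and Hbb-bt, and its smallest unadjusted p among the members was 0.179, for Alas2.

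The direction of these fold changes turned on single libraries for 5 of the 7 genes, all but Hbb-bt and Alas2. Without KD-2 the log2 fold change was -0.09 for Hba-a1, -0.47 for Hba-a2, -0.35 for Hbb-bs and -0.69 for Slc4a1, and 0.49, 0.22 and 0.04 for Hbb-bt, Alas2 and Klf1. Without NC-3 the same genes stood between 0.48 for Klf1 and 3.57 for Hbb-bt. Leaving out KD-3, the low KD library, gave 0.49 to 2.06, and leaving out NC-1 moved Klf1 to -0.04 and Slc4a1 to 0.44. With both KD-2 and NC-1 left out, the latter the library with the lowest neutrophil, lymphocyte and endothelial sums, Hbb-bt stood at 0.01 and the other 6 between -1.21 (Slc4a1) and -0.20 (Alas2). No member passed the adjusted threshold in any of these fits.

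**Figure D2:**
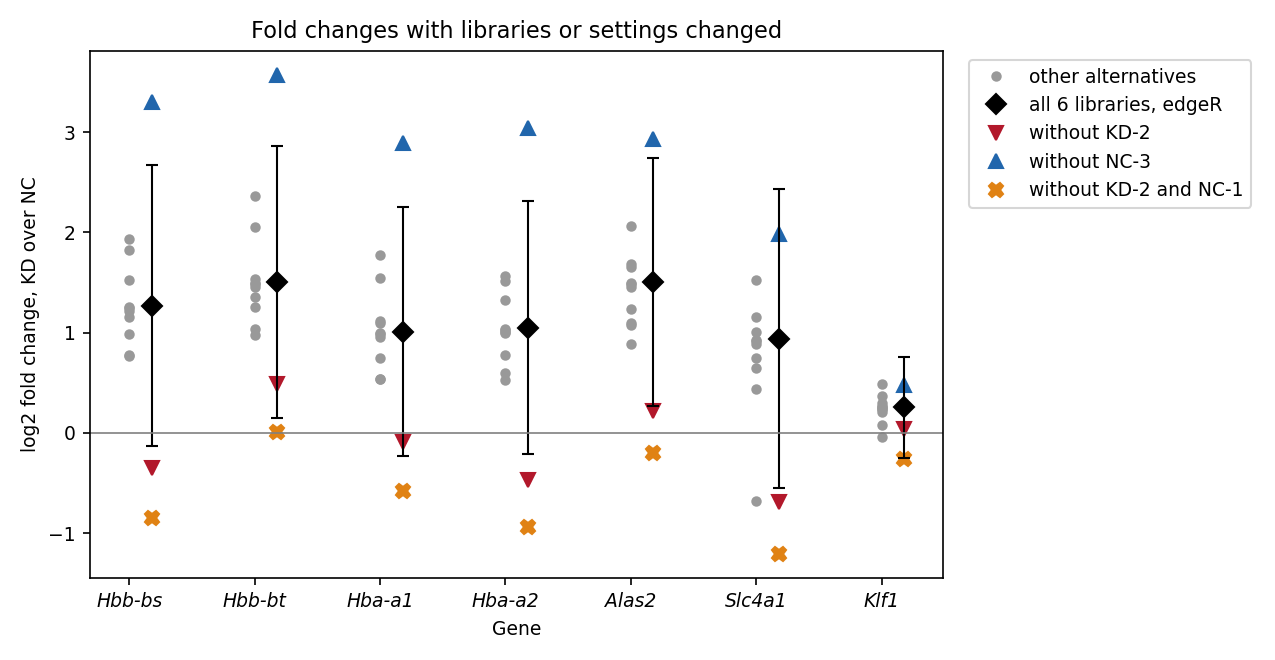
Log2 fold change of KD over NC for each of the 7 tested genes: black diamonds with bars of ±1 SE are edgeR with all 6 libraries, coloured symbols leave out KD-2, NC-3, or KD-2 and NC-1 together, and grey points are the other settings. Without KD-2 the 4 globins stand between -0.47 and 0.49, and without NC-3 between 2.90 and 3.57.

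Within the set, the proportions of the globins to each other, and of Alas2, Epb42 and Klf1 to haemoglobin, spanned less than the haemoglobin sum, while that of Slc4a1 spanned more (35.8-fold). The ratio of beta to alpha globin counts was 1.66, 2.34 and 1.33 for the KD libraries and 1.58, 1.60 and 1.79 for NC, a 1.77-fold span beside the 25.2-fold span of the sum. As a share of haemoglobin counts, the beta genes held 62.4%, 70.1% and 57.0% in KD and 61.3%, 61.6% and 64.1% in NC. The highest and the lowest share both came from KD libraries, KD-2 and KD-3. Their 95% exact intervals, 69.5% to 70.7% and 54.3% to 59.8%, lay apart. The mean log2 ratio was 0.79 in KD and 0.73 in NC, and the difference of 0.06 had p = 0.8 in the two-sided exact permutation test (smallest possible 0.1). Without KD-2 it was -0.16.

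Inside the pairs, Hbb-bt held 17.3%, 10.1% and 10.8% of beta counts for the KD libraries and 12.2%, 8.12% and 10.1% for NC. KD-1 stood above the rest, with a 95% exact interval of 16.3% to 18.4%. Hba-a2 held 6.78%, 10.9% and 12.7% of alpha counts in KD and 11.2%, 7.54% and 9.77% in NC. There KD-1 was the lowest library, its interval of 5.94% to 7.69% overlapping that of NC-2 (5.78% to 9.64%).

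Of the non-globin members, Alas2 varied least against haemoglobin. Per 1000 haemoglobin counts it had 52.5, 46.1 and 38.3 for the KD libraries and 62.9, 51.0 and 34.5 for NC, a 1.83-fold span. The lowest ratio was in NC-3, a library with much haemoglobin, and the highest in NC-1, with the least. Slc4a1 had 8.34, 9.24 and 0.781 per 1000 in KD and 7.98, 28.0 and 8.52 in NC. In 4 libraries it lay between 7.98 and 9.24, while NC-2 was higher (95% exact interval 21.1 to 36.5) and KD-3, resting on 1 count, was lower (0.0198 to 4.36). Epb42, at 0.799, 1.01 and 0.781 in KD and 0.887, 3.0 and 0.998 in NC, was also highest in NC-2. Klf1, whose counts varied little, had 1.14, 0.438 and 5.47 in KD and 3.55, 5.50 and 0.732 in NC, highest in the 3 libraries with the least haemoglobin, the divisor. The sum of the non-globin members (Alas2, Slc4a1, Epb42 and Klf1) was 62.8, 56.8 and 45.3 per 1000 in KD and 75.4, 87.5 and 44.7 in NC. Its mean log2 ratio differed by -0.29 between KD (5.77) and NC (6.06), with p = 0.5 in the two-sided exact permutation test.

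**Figure D3:**
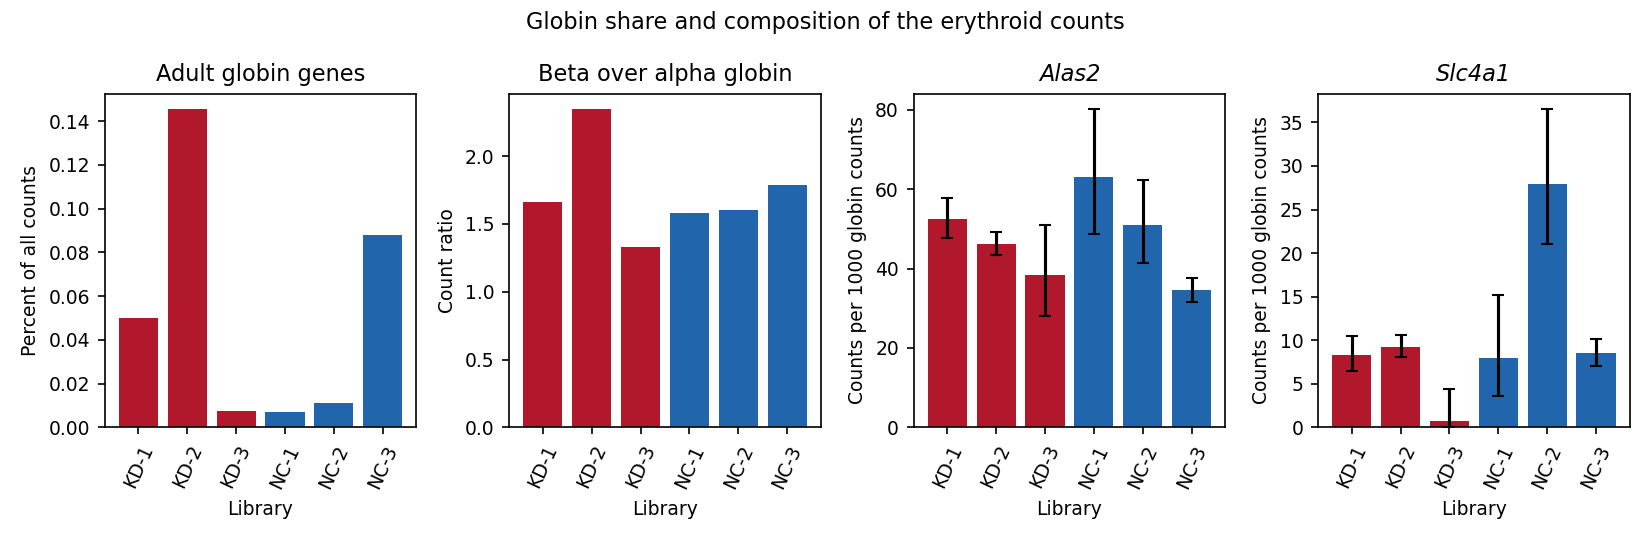
Bars give, for each library (KD in red, NC in blue), the adult globin genes in percent of all counts, the ratio of beta to alpha globin counts, and the counts of Alas2 and of Slc4a1 per 1000 haemoglobin counts with 95% exact intervals for counting error. The globin share runs from 0.00698% to 0.145%, the beta to alpha ratio from 1.33 to 2.34, Alas2 from 34.5 to 62.9 and Slc4a1 from 0.781 to 28.0.

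The genes with the most similar pattern across the 6 libraries were sought among 17029 tested genes with a mean of at least 1 CPM, by Pearson's r with the mean log2 CPM of the 7 tested members. The median r was 0.0557, and 141 genes (0.828%) reached 0.9. Among the 8 closest were B230208H11Rik, Rpain, Toe1, Gm44950, Atf4, Ppargc1b and Igkv5-43, with r between 0.972 and 0.982. Of these, Igkv5-43 spanned 5.65-fold and B230208H11Rik 4.05-fold, and the other 5 spanned at most 1.67-fold, so their likeness is one of order and not of size. An r over 6 libraries that share their depth and tissue make-up is given as a description only.

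Other genes of the red cell were read from lists by role. A span of at least 10-fold between libraries was reached by 15.9% of all tested genes. It was seen in 0 of 17 haem synthesis genes and 6 of 21 membrane genes. Among transcription factors 1 of 13 reached it, and among late erythroid genes 4 of 29. So did 1 of 15 genes of erythropoietin signalling and iron uptake and 5 of 17 haem clearance genes. Such a span gives no direction. Of the 6 membrane genes, Dmtn, Add2, Tmod1 and Stom were lowest in KD-2, the library with the most haemoglobin. They stood there at 3.06, 0.918, 0.459 and 245 CPM, and for each of them every KD library lay below every NC library. The rest of the 6 were highest in KD-2. Among the other globin genes, Hba-x, Hbq1a and Hbq1b had at most 4 counts in any library, and globins of other tissues varied less than the adult red-cell globins: Cygb, the cytoglobin of fibroblast-like cells, had 653, 506 and 755 counts in KD and 439, 697 and 726 in NC, with a log2 fold change of 0.20. Mb, myoglobin, had 9 to 51 counts (a 6.33-fold span in CPM) and Ngb, neuroglobin, 8 to 17 (1.75-fold). The embryonic beta-like genes were not analysed here.

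Haem synthesis runs in nearly all cells, and its list stayed level. The 17 genes summed to 887 to 1024 CPM in KD and 956 to 1032 CPM in NC, a 1.16-fold span across libraries in which Alas2, which is not in that list, spanned 29.9-fold. Of the 17, 0 were called by edgeR, 8 lay above 0 and 9 below, and the median log2 fold change was -0.06. Alas1, the form of the first enzyme found in all tissues and named after its values were seen, had 3286 counts in KD-2, where Alas2 had 1053, and 5308 in KD-3, where Alas2 had 49. The smallest unadjusted p belonged to Fam210b, a mitochondrial protein of iron supply, with 61.4 ± 15.5 CPM in KD libraries, 94.8 ± 13.1 in NC libraries (SD, n = 3 each). Next came Uros (uroporphyrinogen III synthase, log2 fold change -0.41), Slc6a9 (a glycine carrier, 0.54) and Ppox (protoporphyrinogen oxidase, -0.40).

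The red-cell membrane and skeleton list held 23 genes with a row and 21 tested, none called by edgeR, with 14 above 0 and 7 below and a median log2 fold change of 0.29. At an unadjusted p under 0.05, 4 of the 21 were higher and 2 lower, where 8.7% and 9.25% of all tested genes were. Ank1, the ankyrin that binds band 3 and is also made in neurons, had 35, 32 and 89 counts for the KD libraries and 140, 272 and 187 for NC. It did not overlap between groups and had an adjusted p of 0.28 in edgeR and 0.0104 in DESeq2. Tmod3, a tropomodulin found in many cells, stood at 109 ± 17.1 CPM in KD libraries, 66.4 ± 3.44 in NC libraries (SD, n = 3 each), with adjusted p = 0.0347 in DESeq2 and 0.28 in edgeR. Aqp1, a water channel of red cells and of endothelium, stood at 4896 counts in NC-1 and 10427 to 19557 elsewhere, at a fitted log2 fold change of 1.08 (SE 0.404), and Mpp1, the membrane scaffold p55, had a fitted log2 fold change of 0.46 (SE 0.166). Named after their values were seen, Rhag and Kel, proteins of the blood group complexes, had 11, 14 and 0 and 8, 16 and 0 counts in KD, and 1, 4 and 6 and 1, 6 and 10 in NC.

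Of the 15 erythroid transcription factors, 13 were tested, 9 above 0 and 4 below, and the median log2 fold change was 0.30. None was called by edgeR or DESeq2. Gata1, the central factor of red-cell differentiation and named after its values were seen, had 9, 13 and 1 counts in KD and 0, 3 and 8 in NC, too low to test. Bcl11a, which silences embryonic globins in red cells and is also a neuronal factor, had 484, 182 and 624 counts in KD and 1091, 1130 and 756 in NC, at a fitted log2 fold change of -1.13 (SE 0.359). Tal1, a factor of blood and endothelial cells, had 59, 73 and 64 where NC had 26, 38 and 43, at a fitted log2 fold change of 1.07 (SE 0.342). Their groups did not overlap, and both had adjusted p = 0.28 in edgeR. Lmo2, a partner of Tal1, had a log2 fold change of -0.35 and Klf3, a relative of Klf1, one of 0.64. Nfe2, a factor of the megakaryocyte and erythroid lines that neutrophils also carry, was named after its values were seen. Its counts of 162, 291 and 127 in KD and 4, 26 and 272 in NC had KD-3 high, where the globins were low.

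Among 29 tested reticulocyte and late erythroid genes, 17 lay above 0 and 12 below, and the median log2 fold change was 0.08. None was called by edgeR. DESeq2 called 3 of the 29 lower in KD, where it called 1.07% of all genes lower. Among them were Car2 (carbonic anhydrase 2, adjusted p = 0.0188) and Ube2o (a ubiquitin-conjugating enzyme, 0.022). The edgeR adjusted p of both was 0.28. Both are also made outside red cells. Car2 had 562, 283 and 596 counts in KD and 1292, 1105 and 998 in NC, so KD-2, the library with the most haemoglobin, had the least Car2. Bnip3l, which clears mitochondria from reticulocytes, had a fitted log2 fold change of 0.48 (SE 0.176).

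The list of erythropoietin signalling and iron uptake had 15 tested genes, 12 above 0 and 3 below, and the median log2 fold change was 0.41. For 7 of the 15 each KD library lay above each NC library, and for 0 the reverse, where 15.3% and 18.6% of all tested genes did. Jak2, the kinase of the erythropoietin receptor and of many cytokine receptors, had 2405, 1702 and 2275 counts in KD and 995, 1637 and 1338 in NC. Its log2 fold change was 0.85 (SE 0.162), with adjusted p = 0.28 in edgeR and 0.00479 in DESeq2. Stat5a (1.04), Stat5b (0.50) and Hif1a (0.41) had fitted log2 fold changes on the same side. The receptor Epor itself, named after its values were seen, had 16, 14 and 8 counts in KD and 19, 10 and 18 in NC.

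The genes of haem clearance and iron storage, not all of which handle haem itself, had 17 tested members, 12 above 0 and 5 below, and the median log2 fold change was 0.65. None was called by edgeR or DESeq2. Their sum was 4212, 7790 and 4888 CPM in KD and 1368, 2368 and 4042 in NC. Most of it was Fth1 and Cp, named after their values were seen. Fth1 had 2342, 3799 and 3124 CPM in KD and 732, 1117 and 2196 in NC. Cp had 1033, 2447 and 808 CPM in KD and 128, 551 and 910 in NC. Hmox1, haem oxygenase 1, had 1191, 1777 and 1196 counts in KD and 402, 797 and 1118 in NC, without overlap in CPM and at a log2 fold change of 1.08 (SE 0.432, edgeR adjusted p = 0.28). Slc40a1, the iron exporter ferroportin, and Ftl1, the ferritin light chain, had log2 fold changes of 0.87 and 0.65. Hfe, which tunes iron sensing, had one of -0.99. Haptoglobin (Hp), which binds free haemoglobin and is also stored by neutrophils, was named after its values were seen and had 2460, 6483 and 2389 counts in KD and 136, 749 and 3093 in NC.

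**Figure D4:**
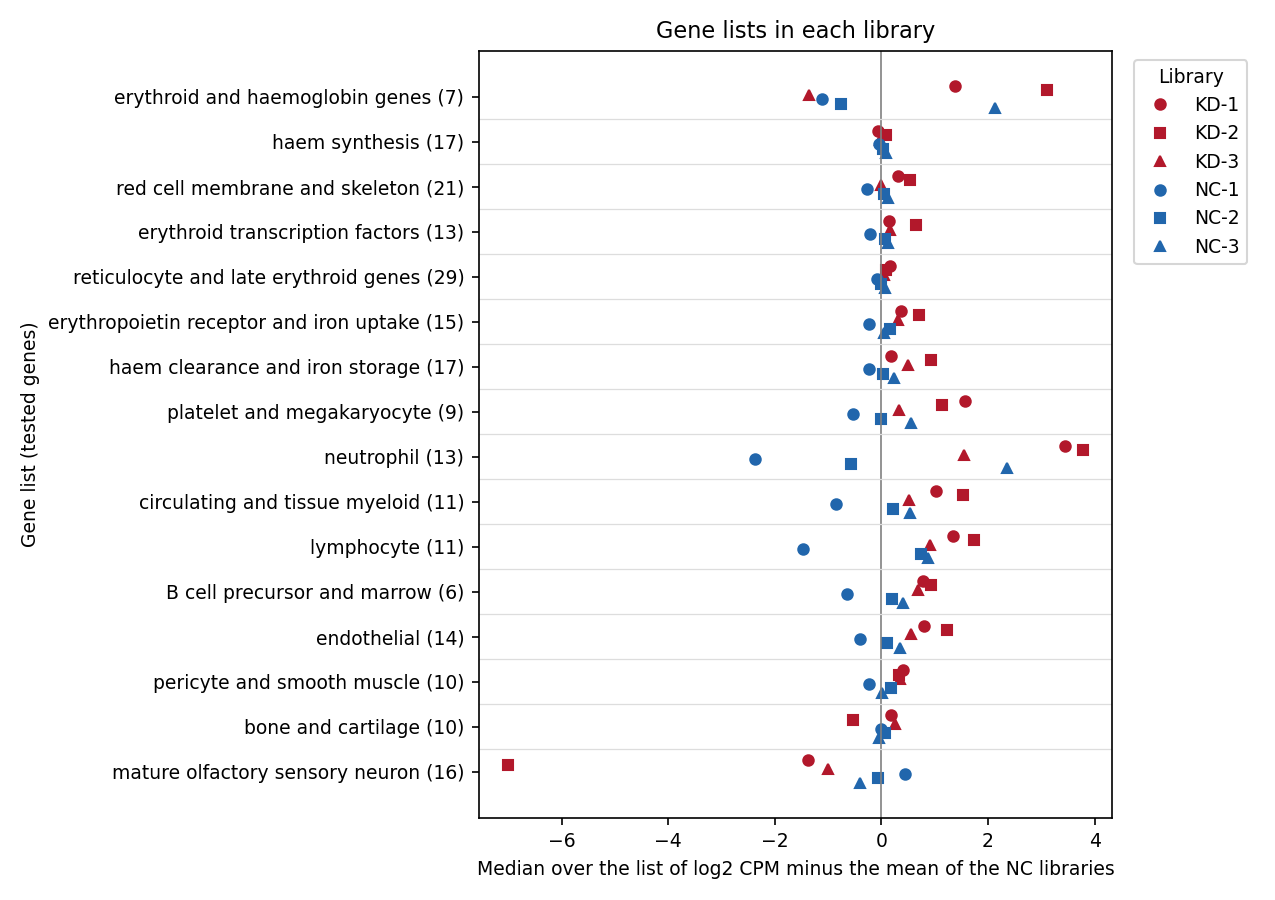
Each row is a gene list with its number of tested genes, and each symbol is 1 library, placed at the median over the list of log2 CPM after subtracting the NC mean (KD in red, NC in blue). The erythroid and haemoglobin genes stand at 1.37, 3.12 and -1.36 for the KD libraries and at -1.12, -0.77 and 2.14 for NC, and the mature neuron list stands at -7.01 in KD-2.

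Markers of other blood cells moved in part with haemoglobin. The neutrophil list summed to 2173, 4882 and 1672 CPM for the KD libraries and 81.4, 287 and 2318 for NC when Ltf was left out, a lactoferrin gene that gland cells also express and that made up 76.1% to 96.1% of the full sum. The full sum of 14 genes was 13963 to 35161 CPM in KD and 1487 to 9684 in NC. All 13 tested members lay above 0, with a median log2 fold change of 1.82, 0 called by edgeR or DESeq2, and 12 of the 13 spanned at least 10-fold. None of the 14 was at 0 in any library. Retnlg, a neutrophil secreted protein named after its values were seen, had 2591, 6825 and 1615 counts in KD and 16, 142 and 6014 in NC. KD-2, KD-1 and NC-3 were thus high for neutrophil markers as for globins and NC-1 and NC-2 low, but KD-3, with a haemoglobin level close to that of NC-1 (70.4 and 69.4 CPM), had a neutrophil sum without Ltf of 1672 CPM where NC-1 had 81.4. The part of these cells in the values of the globins was not tested.

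The platelet and megakaryocyte list summed to 145 to 256 CPM in KD and 73.2 to 144 in NC. Its defining genes Gp6, Gp9 and Tubb1 were at 0 in at least 1 library. Vwf made up most of the sum, with 138, 228 and 104 CPM in KD and 42.3, 55.8 and 98.9 in NC. Of the 9 tested genes of the list, 6 lay above 0 and 3 below. Itga2b was among the latter, at a log2 fold change of -0.74 without overlap between groups. Other myeloid markers summed to 1490 to 6091 CPM in KD and 501 to 2680 in NC. Lyz2 made up most of the myeloid sum, with 2529, 5418 and 1128 CPM in KD and 373, 590 and 2350 in NC. Lymphocyte markers summed to 3747 to 6493 against 1017 to 5292 CPM. Nearly all of the lymphocyte sum was Jchain, with 5567, 6097 and 3572 CPM in KD and 992, 4209 and 5071 in NC. Markers of B cell precursors and marrow were at 213 to 282 against 262 to 310 CPM, with Rag1, Rag2 and Vpreb1 at 0 in at least 1 library, and bone and cartilage markers at 277 to 382 against 259 to 280. Neither of the last 2 lists had a high sum in KD-2 or NC-3, the libraries with the most haemoglobin. In the B cell precursor list the low sum of KD-2 went with 1 gene, Ebf1, at 13.5 CPM in KD-2 and 191 in NC-1. Ebf1 had 1115, 177 and 1655 counts in KD and 3112, 2680 and 1847 in NC. In CPM it ranked the libraries in the same order as the sum of the mature neuron markers given below. What this shared order reflects was not tested. The median of the 6 tested genes of that list stood 0.92 above the NC mean in KD-2 on the log2 scale. Of its other tested genes, Dntt and Cd34 were highest in KD-2, while Vpreb3, Cxcl12 and Lepr were highest in other libraries. Whether the genes of that list other than Ebf1 rose with haemoglobin was not tested.

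Endothelial markers separated the groups more clearly than haemoglobin did. The endothelial list summed to 478, 653 and 407 CPM for the KD libraries and 200, 288 and 348 for NC, without overlap, and for 12 of its 14 genes each KD library lay above each NC library, as for 15.3% of all tested genes. No gene of it was called by edgeR, and DESeq2 called 2 of the 14 higher, where it called 0.821% of all genes higher. The pericyte and smooth muscle list stood at 2790 to 4021 CPM in KD and 1123 to 2728 in NC. Rgs5 made up most of that sum and overlapped between groups, at 2777, 2232 and 3461 CPM in KD and 749, 2243 and 1606 in NC. For 2 of the 10 pericyte genes each KD library lay above each NC library, and for 0 the reverse. Of all tested genes 15.3% and 18.6% did. Haemoglobin per 1000 endothelial counts was 1069, 2673 and 173 in KD and 347, 354 and 2416 in NC, still a 15.4-fold span. On that scale the mean log2 difference was 0.25, with p = 0.9 in the two-sided exact permutation test.

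The summed markers of mature neurons and of sustentacular cells were lowest in KD-2, and the sum for horizontal basal cells was highest there. The 16 mature neuron markers summed to 4374, 176 and 5385 CPM in KD and 14808, 10824 and 9074 in NC, and those of sustentacular cells, the supporting cells of the epithelium, to 9181, 3926 and 10800 against 14300, 11147 and 11512. Horizontal basal cell markers, of the stem cells at the base of the epithelium, stood at 1211, 1457 and 870 CPM in KD and at 253, 546 and 658 in NC. NC-3 had 841 CPM of haemoglobin and NC-2 had 102 at neuron sums of 9074 and 10824 CPM, and KD-3 had the least haemoglobin of the KD libraries with the most neuron markers. The part of these shifts in the haemoglobin level of KD-2 was not tested.

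The genes beside the globin pairs given here did not share their pattern. The beta pair lies among odorant receptor genes: the nearest 3 on each side with a row (Olfr67, Olfr68 and Olfr69 at lower coordinates, Olfr66, Olfr64 and Olfr65 at higher) were all at 0 in KD-2, where the beta globins were highest. Olfr67, 20703 bases away, had 0, 0 and 6 counts in KD and 23, 30 and 4 in NC. Olfr65 had 2, 0 and 5 where NC had 56, 92 and 48, a log2 fold change of -4.62 with adjusted p = 0.28 in edgeR. A count of 0 in KD-2 allows up to 3 counts, or 0.23 CPM. Beside the alpha pair, Nprl3, whose introns hold the enhancers of the alpha globins, had 487, 375 and 554 counts in KD and 446, 568 and 577 in NC, with a log2 fold change of -0.02.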

How the data were processed

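The authors deposited 1 table with raw counts per gene and library, which also holds, per the file headers, a signal column (size-factor scaled counts averaged over libraries) and, from the authors' own comparison, a log2 fold change and an unadjusted p-value. The submitters' processing notes name HTSeq 0.6.0, the aligners HISAT2 2.1.0, Bowtie2 2.2.3 and TopHat2, the packages DESeq and DESeq2, and GRCm38, without their roles. The sources used here do not give the annotation release, the strand setting or the handling of reads with several matches. Per the labels' protocols, RNA was extracted with Trizol and libraries were made with the NEBNext Ultra kit after poly-T selection.

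Counts were tested with edgeR 4.0.16 (R 4.3.3): TMM factors, the default low-count filter (18444 genes of 31319 tested), quasi-likelihood test, KD against NC over 6 libraries without a covariate, two-sided, Benjamini-Hochberg adjustment over all tested genes, threshold 0.05. The biological coefficient of variation was 40.9%. Standard errors come from each fold change with its F value. Alternatives were DESeq2 1.42.0, limma-voom (limma 3.58.1), other scaling, no filter, a replicate block and leaving out libraries. The edgeR script was tested on simulated counts. Sums and ratios used exact permutation tests (scipy 1.17.1). Levels per length divide CPM by the union of GENCODE exons. Gene symbols of 25 rows altered by a spreadsheet were restored by gene ID.

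The members, the 8 lists of red-cell genes (the members among them) and the 11 marker lists were chosen with earlier results of these data known. Genes named from a list of red-cell genes are the up to 4 with the smallest p among those with at least 10 counts in all libraries together, unless the text says otherwise, and those named for likeness are the 8 with the highest r. Some genes that these rules name are not reported here.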

Additional observations from a re-analysis of the deposited data

How the results depend on the processing

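Of 146 values under alternative settings, 129 kept their direction and their side of the threshold, and 0 of the 7 tested members were called in any setting (smallest adjusted p 0.23). The number of genes called was 0 in edgeR with upper quartile factors, library totals, no filter or a replicate block, 0 in limma-voom, 347 in DESeq2 and 3 when KD-2 and NC-1 were both left out; leaving out 1 library gave 0 to 0. The summed haemoglobin difference ranged from 0.07 to 2.38 with 1 library left out and was -0.63 with both of these left out. It was 0.98 with library totals and 1.11 with DESeq2 size factors. The beta to alpha difference ranged from -0.16 (without KD-2) to 0.25 and was -0.19 without both libraries, and that of the non-globin members per 1000 haemoglobin counts ranged from -0.58 to -0.09. Of 91 alternative values of single members, 12 reversed. Without KD-2 they were Hba-a1 (-0.092), Hba-a2 (-0.47), Hbb-bs (-0.35) and Slc4a1 (-0.69). Without NC-1 Klf1 did (-0.040), and Slc4a1 did in limma-voom (-0.68). Leaving out both of KD-2 and NC-1 gave -0.58 for Hba-a1, -0.94 for Hba-a2, -0.85 for Hbb-bs, -0.20 for Alas2, -1.21 for Slc4a1 and -0.26 for Klf1. With 1 library left out the ranges were -0.092 to 2.90 (Hba-a1), -0.47 to 3.04 (Hba-a2), -0.35 to 3.30 (Hbb-bs), 0.49 to 3.57 (Hbb-bt), 0.22 to 2.94 (Alas2), -0.69 to 1.98 (Slc4a1) and -0.040 to 0.49 (Klf1). The shifts with 1 library left out differed with the library removed: Hba-a1 stood at -0.092 without KD-2 and at 2.90 without NC-3. The difference of limma-voom for Slc4a1 has a cause that was not tested. Libraries with the same number did not all deviate together (correlations 0.31, 0.10 and -0.26). With 3 libraries a group these correlations cannot show whether the numbers mark pairs. With the number as a replicate block, 0 genes and 0 members were called, and the exact permutation p was 0.75 for summed haemoglobin (difference 1.13), 0.75 for beta to alpha (0.06) and 0.5 for the non-globin members (-0.29), where 0.25 is the smallest possible. KD-1 with NC-1 had the highest correlation of KD-1, while KD-2 correlated best with NC-3 (0.35). Depth limits Epb42, Klf1 and the single count of Slc4a1 in KD-3, and 3 libraries a group limit all tests.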

Other observations

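Igkv5-43, an immunoglobulin kappa variable gene and the one gene of an antibody among the 8 with the closest pattern, had 959, 1299 and 396 counts for the KD libraries and 286, 368 and 1330 for NC. NC-3 and KD-2 held the most, as for haemoglobin. The log2 fold change was 0.67, with an adjusted p of 0.59 in edgeR.

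Ppbp, the platelet basic protein, did not follow the globins among the blood genes. It had 913, 64 and 195 counts for the KD libraries and 1, 86 and 63 for NC, so its highest library was KD-1. KD-2, with the most haemoglobin, stood at 4.90 CPM and NC-2 at 4.39. Some granule genes of the neutrophil list were also highest in KD-1, while others (Ngp, Ltf and Mmp8) were highest in KD-2. Elane had 316, 120 and 3 counts in KD and 4, 5 and 58 in NC, Mpo had 356, 166 and 13 against 1, 16 and 83, and Fcnb had 90, 19 and 1 against 2, 3 and 5. KD-1 was also the library in which Hbb-bt took its largest share of beta globin counts, 17.3%. These genes were named after their values were seen, and no relation between them was tested.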
